A study of Mus musculus with 18 samples.

Results

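The HOX genes were taken as every protein-coding row of the deposited count table whose symbol has the form Hoxa, Hoxb, Hoxc or Hoxd followed by a number. This gave 40 of 54532 rows, with 11 in the HOXA cluster, 10 in HOXB, 9 in HOXC and 10 in HOXD. They stand for 39 symbols, because Hoxd4 has 2 rows. These are a row written Hoxd4 (ENSMUSG00000115956) and an overlapping model (ENSMUSG00000101174), written Hoxd4-long below. The suffix is a label only and does not rank the 2 rows by transcript length. The rows were followed through 18 RNA-sequencing libraries of mouse colonic epithelial cells in 6 groups of 3. The groups are distal and proximal colon of wild-type mice labelled BL6, of mice knocked out for FIP1 (Rab11fip1) and of mice knocked out for FIP2 (Rab11fip2), 2 adaptor proteins of the small GTPase RAB11 in vesicle recycling. All were fresh tissue with no treatment, from which epithelium was freed mechanically in ice-cold buffer with 30 mM EDTA. The labels give no allele, age, sex or pooling, and nothing in them ties each library to its own animal. The p-values therefore measure the spread between these libraries, which may be technical.

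HOX genes encode homeodomain transcription factors that give cells their position along the head-to-tail axis of the body. In mammals they lie in 4 clusters, and the members are numbered by their place in the cluster: low paralog numbers at the anterior (3′) end are used toward the head, high numbers at the posterior (5′) end toward the tail. The gut keeps part of this code in the adult, where posterior members such as Hoxa13, Hoxd13 and Hoxb13 are known from the hindgut and its epithelium. Polycomb and trithorax complexes keep HOX genes off or on, retinoic acid acts on their anterior members, and homeodomain proteins of the TALE family bind DNA together with HOX proteins.

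Library totals ranged from 11193308 to 22062300 counts. In the FIP1 knockout Rab11fip1 measured 46.3 to 82.4 CPM (counts scaled to library size, with edgeR's TMM factors applied) against 91.9 to 174.6 CPM in wild type, and in the FIP2 knockout Rab11fip2 measured 2.48 to 4.28 CPM against 4.92 to 8.67 CPM. Both targeted transcripts were thus lower and not absent in their knockouts. Scnn1g, a distal colon sodium channel subunit, was lower in the proximal libraries (log2 difference -2.70, SE 0.24). Prac1 and Scnn1b had been listed as further distal checks. Of the 5 genes in this list, the targeted genes included, 4 were tested. In the segment difference averaged over genotypes 1 of them, Scnn1g, was called lower, so neither Prac1 nor Scnn1b gave a call. Summed over 10 epithelial markers the libraries held 12133 to 20267 CPM, and over 12 fibroblast markers 17.4 to 155 CPM. None of these markers was at 0 in any group. Wild-type proximal library 2 stood apart, with 102.1 CPM of 7 forebrain neuron genes against 15.1 and 17.1 CPM in the other wild-type proximal libraries. Calls that changed when it was omitted are given beside the results. In bulk RNA, fewer cells of a type and less RNA per cell cannot be told apart. The strand of the libraries is not given in the sources used here, and 16 HOX rows share exonic bases with another gene, 11 of them among the rows tested. Counts of Hoxb3 (47.1% of exonic bases unshared, partner Hoxb3os) and Hoxd3 (37.2% unshared, partners Hoxd3os1, Hoxd4, Gm28230 and Haglr) are the most uncertain for this reason. In all, 25 rows passed the filter on low counts: 10 HOXA, 8 HOXB and 7 HOXD rows.

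The 250 bases upstream of the RefSeq start (GRCm38.p6) are shown for a pair of genes with more RNA in proximal colon, Hoxb4 (chr11:96318017-96318266, plus strand) and Hoxb8 (chr11:96281655-96281904, plus strand), and for a pair with more RNA in distal colon, Hoxa13 (chr6:52260881-52261130, minus strand) and Hoxd13 (chr2:74667975-74668224, plus strand). Each is written 5′ to 3′ on the strand of its gene, and capitals mark TTTATG or its reverse complement CATAAA, a word that CDX proteins bind.
Hoxb4: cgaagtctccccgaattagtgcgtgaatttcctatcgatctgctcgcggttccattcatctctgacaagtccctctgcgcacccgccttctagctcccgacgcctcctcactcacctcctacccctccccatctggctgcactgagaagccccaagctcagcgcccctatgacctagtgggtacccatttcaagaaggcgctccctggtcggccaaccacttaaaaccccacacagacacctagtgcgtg
Hoxb8: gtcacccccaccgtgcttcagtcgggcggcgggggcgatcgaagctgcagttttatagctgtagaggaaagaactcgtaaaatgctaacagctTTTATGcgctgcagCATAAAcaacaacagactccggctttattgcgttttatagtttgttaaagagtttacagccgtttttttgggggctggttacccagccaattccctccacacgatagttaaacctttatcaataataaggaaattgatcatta
Hoxa13: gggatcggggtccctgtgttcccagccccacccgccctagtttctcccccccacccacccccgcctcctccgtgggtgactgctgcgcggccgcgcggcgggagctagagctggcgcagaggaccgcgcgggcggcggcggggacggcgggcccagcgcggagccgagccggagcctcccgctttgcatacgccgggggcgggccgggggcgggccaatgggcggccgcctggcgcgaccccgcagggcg
Hoxd13: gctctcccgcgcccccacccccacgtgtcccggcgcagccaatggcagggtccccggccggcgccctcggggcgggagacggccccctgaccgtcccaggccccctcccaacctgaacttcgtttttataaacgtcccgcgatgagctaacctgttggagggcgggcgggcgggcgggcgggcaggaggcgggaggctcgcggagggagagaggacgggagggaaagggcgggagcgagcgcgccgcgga
The Hoxb8 window held 2 matches and the other 3 windows held none. Of 32851 RefSeq windows of this length 10.8% held a match. Of the 24 windows for the 22 HOX symbols with an entry 5 did. Besides Hoxb8 they included Hoxa7 (2 matches) and a Hoxd11 window (1 match), both of genes called higher in distal colon. Hoxd3, called higher in proximal colon, had 1 match. The pairs shown thus do not stand for the genes of either segment in this word. A similar word, TATAAA or its reverse complement TTTATA, had 2 matches each in the Hoxb8 and Hoxd13 windows. It had none in those of Hoxb4 and Hoxa13. That word was found in 12.4% of all windows and in 4 HOX windows. The distal pair was rich in CpG, with 35 CpG dinucleotides for Hoxa13 and 31 for Hoxd13, against 14 for Hoxb4 and 12 for Hoxb8. Windows of other genes called higher in distal colon held from 2 (a Hoxd11 window) and 3 (Hoxa9) to 28 (Hoxa5). The pair thus does not stand for the distal genes. The median was 12.5 over the HOX windows and 6 over all windows. A match describes these letters and is not a measured binding site.

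Between HOX genes lie microRNA genes of the miR-10 and miR-196 families, whose mature forms are known to target HOX transcripts. Their mature sequences (RefSeq, GRCm38.p6) are shown because rows for 2 of their hairpins were measured below, with the seed (bases 2 to 8) in capitals.
miR-10a-5p: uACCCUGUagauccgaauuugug
miR-10b-5p: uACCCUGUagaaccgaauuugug
miR-196a-5p: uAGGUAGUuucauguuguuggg
miR-196b-5p: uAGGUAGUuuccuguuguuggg
The 2 miR-10 forms share the seed ACCCUGU and the 2 miR-196 forms the seed AGGUAGU. Mir10a (chr11:96317186-96317208) lies between Hoxb5 and Hoxb4, Mir10b (chr2:74726074-74726096) in the HOXD cluster, Mir196a-1 (chr11:96265187-96265208) between Hoxb13 and Hoxb9, and Mir196b (chr6:52230129-52230150) in HOXA. In poly-A libraries a row for such a gene counts reads over the hairpin and does not measure the mature microRNA.

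The 2 ends of the colon carried different HOX sets. On the FPKM scale, which corrects for transcript length, the HOX genes with the highest medians over the 9 distal libraries were Hoxb13 (68.8), Hoxa13 (42.5), Hoxa9 (39.9), Hoxa7 (32.4), Hoxa10 (26.4) and Hoxb9 (20.5). Over the 9 proximal libraries they were Hoxb6 (61.5), Hoxb9 (28.02), Hoxb7 (26), Hoxa7 (18.9), Hoxb8 (15.6) and Hoxb5 (13.5). Hoxa7 and Hoxb9 thus belonged to the leading 6 in both segments. Neighbours in either order mostly overlapped: distal Hoxa13 spanned 35.0 to 47.3 FPKM and distal Hoxa9 spanned 32.8 to 53.5.

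**Figure D1:**
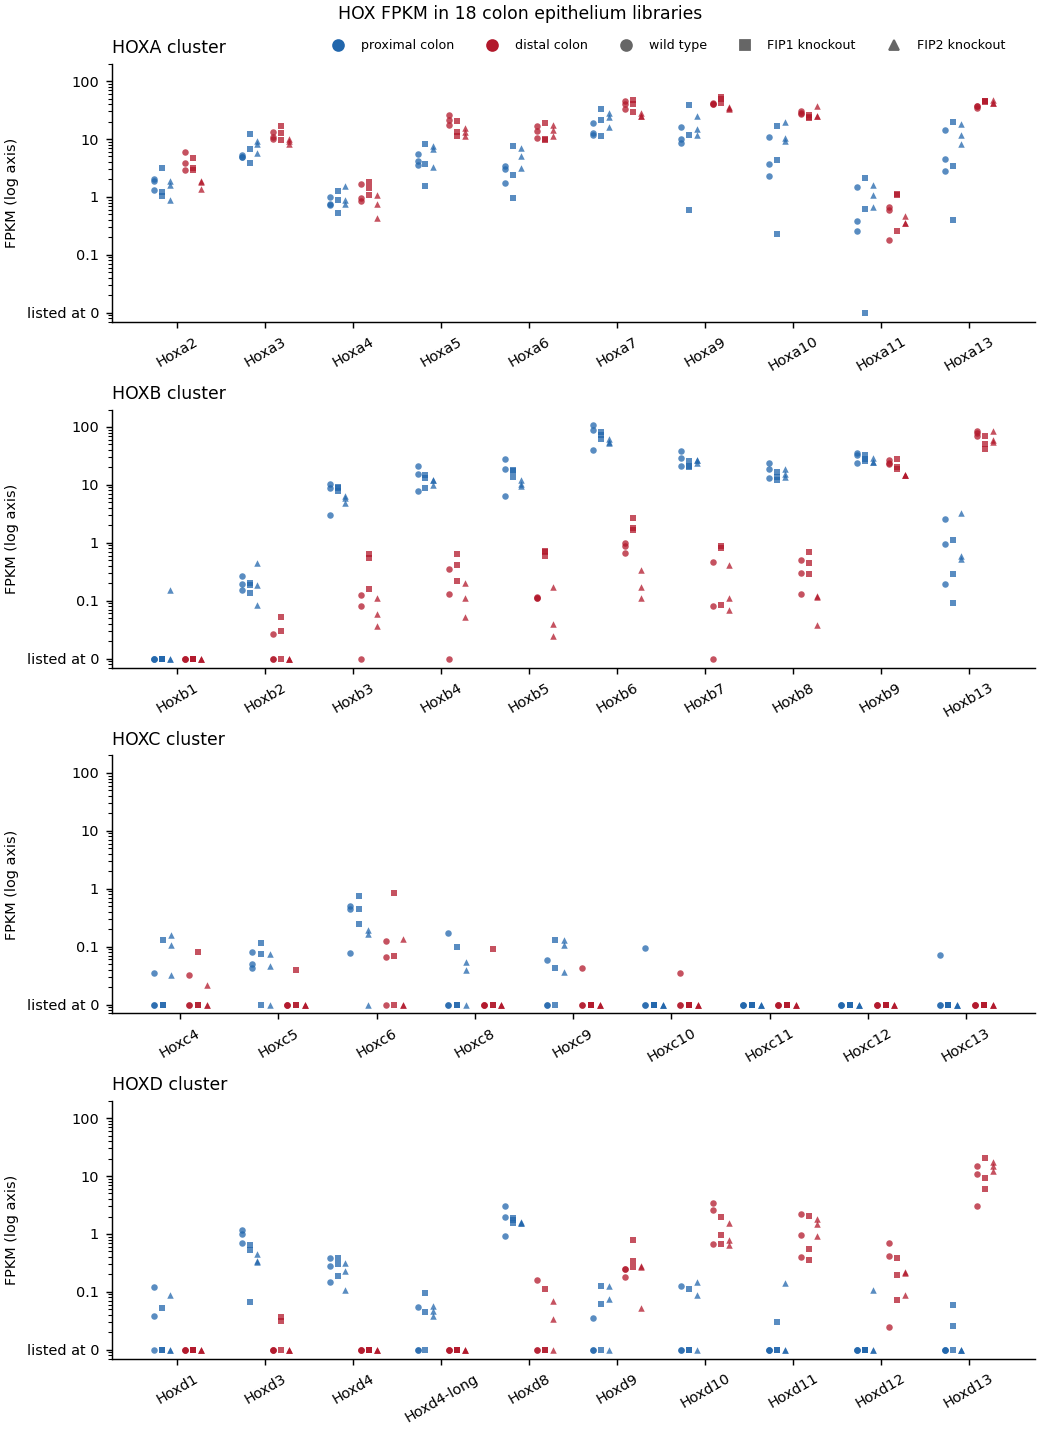
FPKM (log axis) of the HOX rows reported here in the 18 libraries, by cluster and paralog number, with proximal libraries in blue, distal libraries in red and genotypes as symbols; values of 0 are drawn at the bottom. Hoxb3 to Hoxb8 sit high in blue and near the bottom in red, Hoxb13 and Hoxd13 show the reverse, and no HOXC point exceeds 0.852 FPKM.

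Summed over all HOX rows the FPKM were 296 ± 26.1 (SD, n = 9) in distal and 251 ± 40.0 (SD, n = 9) in proximal colon, so the segments differed less in the sum than in its make-up. In distal colon HOXA gave 64.6% ± 4.94 (SD, n = 9) of the sum and HOXB 30.1% ± 3.92. In proximal colon HOXA gave 28.2% ± 13.3 and HOXB 70.5% ± 13.3. The HOXA share did not overlap between segments, with 59.4% to 72.6% in distal and 10.7% to 46.3% in proximal libraries. HOXD gave 5.31% of the distal and 1.15% of the proximal sum, and HOXC 0.0558% and 0.222%. Paralogs 9 to 13 together made up 72.1% ± 4.88 of the distal and 25.3% ± 8.49 of the proximal sum. Hoxb3 to Hoxb8 made up 58.4% of the proximal sum and 0.785% of the distal one.

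**Figure D2:**
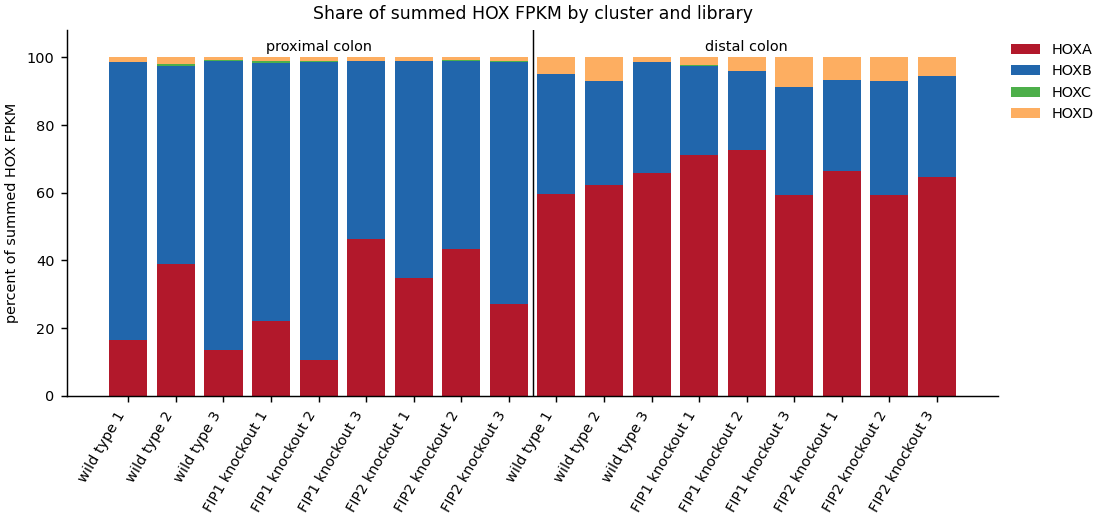
Percent of the summed HOX FPKM that each cluster gave in each of the 18 libraries (1 bar per library). HOXA makes up 59.4% to 72.6% of the bar in the 9 distal libraries and 10.7% to 46.3% in the 9 proximal libraries, where HOXB makes up the larger part in every library.

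To ask which genes differed between segments whatever the genotype, the proximal minus distal difference was averaged over the 3 genotypes in edgeR's quasi-likelihood fit, with p-values adjusted by Benjamini-Hochberg over all 17692 genes tested. Of the 25 HOX rows tested, 10 were higher and 13 lower in proximal colon at an adjusted p under 0.05, while 22.7% of all genes were called (11.7% higher and 11% lower). In 17 of the 25 the 9 proximal and 9 distal libraries did not overlap, against 3.47% of all genes. Of these 25 rows, 9 passed the low-count filter through libraries of 1 segment alone (Hoxb3, Hoxb7, Hoxd3, Hoxd4 and Hoxd8 through proximal, Hoxd10, Hoxd11, Hoxd12 and Hoxd13 through distal libraries) and so had to differ. By cluster, 8 of 10 HOXA rows were called and all 8 were lower in proximal colon. In HOXB 7 of 8 rose and 1 fell, and in HOXD 3 of 7 rose and 4 fell. All 7 HOXD rows were among those that had to differ. Of the 16 rows that passed the filter through both segments, 5 were higher and 9 lower, and 9 did not overlap. The median log2 difference was -1.07 for HOXA and 6.08 for HOXB (Hoxb3 and Hoxb7 included), and -0.02 over all genes tested. By position, with the rows that had to differ included, paralogs 1 to 8 held 9 higher and 5 lower calls of 15. Paralogs 9 to 13 held 1 higher and 8 lower of 10. All 23 calls held under every alternative that gave an adjusted p, including the omission of each library. For the 9 rows that had to differ this adds no support. Among cell type markers 3 of 11 tested fibroblast genes were higher in proximal colon, 2 of 10 epithelial genes were higher and 1 lower, and 3 of 12 immune genes were higher and 2 lower. Within genotypes, 5 of 12 immune genes were higher in proximal colon of the FIP2 knockout (summed level 167.1 to 260.4 CPM against 56.6 to 68.2 CPM in distal). Of 6 forebrain genes 4 were higher in wild type and 3 lower in the FIP1 knockout. The part of cell composition in the HOX differences was not tested.

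Hoxb3 to Hoxb8 formed a block of 6 neighbouring genes that were on in proximal and nearly silent in distal epithelium. Hoxb6 was the highest of them, with 39.6, 61.5 and 109.6 FPKM as the lowest, median and highest of the 9 proximal libraries and 0.110, 0.878 and 2.72 FPKM in the distal ones. Every proximal library was far above every distal library. Summed over libraries its level was 75.9-fold higher in proximal colon, with a log2 difference of 6.67 (SE 0.20, adjusted p = 1.92e-14). Hoxb5 measured 6.41, 13.5 and 28.2 FPKM in proximal against 0.024, 0.114 and 0.732 in distal libraries, a log2 difference of 6.41 (SE 0.27, adjusted p = 3.87e-12). Hoxb4, known for expanding blood stem cells, measured 7.94, 12.1 and 21.6 against 0, 0.198 and 0.644 FPKM, with a log2 difference of 6.07 (SE 0.30, adjusted p = 2.14e-11). Again no distal library reached a proximal one for either gene. Hoxb7 measured 20.3, 26 and 38.4 FPKM in proximal and 0, 0.109 and 0.885 in distal libraries (log2 difference 6.60, SE 0.30, adjusted p = 8.30e-12). Hoxb8, a regulator of myeloid progenitors whose upstream window is shown above, measured 11.98, 15.6 and 23.5 against 0.038, 0.283 and 0.703 FPKM (log2 difference 6.10, SE 0.21, adjusted p = 1.63e-13). Hoxb3 measured 3.003, 7.87 and 10.52 against 0, 0.110 and 0.633 FPKM (log2 difference 5.81, SE 0.30, adjusted p = 3.67e-11), with the overlap with Hoxb3os noted above. The 6 log2 differences thus lay between 5.81 and 6.67. Hoxb3 and Hoxb7 passed the low-count filter through proximal libraries alone and so had to differ, and their p-values add no support. Hoxb4, Hoxb5, Hoxb6 and Hoxb8 passed through both segments, with log2 differences between 6.07 and 6.67.

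The block ended sharply in its segment difference toward Hoxb9 and in its level toward Hoxb2. Hoxb9, 5309 bases from Hoxb8 in the count table's coordinates, was high in both segments, with 23.5, 28.02 and 35.4 FPKM in proximal and 14.6, 20.5 and 28.1 in distal libraries. The ranges overlapped, and the log2 difference was 0.59 (SE 0.08, adjusted p = 2.05e-05), against 6.10 for its neighbour Hoxb8. On the anterior side Hoxb2 was near the detection limit, with 64 counts over the 9 proximal and 4 over the 9 distal libraries. That was still 18.2-fold higher in proximal colon. Hoxb1 had 4 counts in all. Neither was tested.

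Hoxb13, the posterior end gene of HOXB and a regulator of the tail bud and prostate, lies 74009 bases from Hoxb9 (chr11:96194316-96197447) and went the opposite way. It measured 40.9, 68.8 and 84.6 FPKM in distal and 0.092, 0.584 and 3.27 FPKM in proximal libraries. All distal libraries were above all proximal ones. Its level was 62.0-fold higher in distal colon, with a log2 difference of -5.97 (SE 0.40, adjusted p = 1.24e-09). In the interval between Hoxb9 and Hoxb13 the row of Mir196a-1 and the noncoding RNA Gm53 were read in both segments. Gm53 measured 106.4 to 147.5 CPM in distal and 97.8 to 164.7 CPM in proximal libraries, with a log2 difference of -0.04 (SE 0.10, adjusted p = 0.845). The Mir196a-1 row measured 14.2 to 23.2 and 11.3 to 21.1 CPM, with a log2 difference of 0.02 (SE 0.13, adjusted p = 0.959). The Mir10a row, beside Hoxb4, had no count in any distal library and 1.49 to 4.04 CPM in the proximal ones.

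In HOXD, at lower levels, Hoxd3, Hoxd4 and Hoxd8 were higher in proximal colon and Hoxd10 to Hoxd13 in distal colon. All of these rows passed the low-count filter through proximal or through distal libraries alone and so had to differ. Their p-values are given for completeness and add no support to the split. Hoxd8 and Hoxd9 lie 4406 bases apart. Hoxd13, a hindgut and limb gene, measured 3.05, 12.4 and 20.9 FPKM in distal libraries, and 0, 0 and 0.059 FPKM in proximal ones. This was 4507 counts against 4, a 988-fold higher level in distal colon, or 3267-fold (95% counting interval 586.1 to 129067) without FIP1 knockout proximal library 3, which held 3 of the 4 (adjusted p = 3.50e-09; its fitted log2 difference of -10.69 depends on the prior count). Hoxd10 (0.654 to 3.37 against 0 to 0.151 FPKM), Hoxd11 (0.355 to 2.20 against 0 to 0.144) and Hoxd12 (0.025 to 0.698 against 0 to 0.108) were also higher in distal colon. Their log2 differences were -4.60 (SE 0.57), -6.54 (SE 0.74) and -4.96 (SE 0.96), with adjusted p-values of 3.90e-06, 2.93e-06 and 0.00114. Libraries of the 2 segments overlapped for Hoxd12 and for neither of the other two. Hoxd9 fell under the filter, with 90 distal and 14 proximal counts, 5.64-fold higher in distal colon and untested.

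The anterior HOXD genes went with proximal colon, though Hoxd3, Hoxd4 and Hoxd8 passed the low-count filter through proximal libraries alone and had to differ. Hoxd8 measured 0.905, 1.59 and 3.09 FPKM in proximal against 0, 0 and 0.159 FPKM in distal libraries, 43.8-fold higher (log2 difference 5.35, SE 0.49, adjusted p = 7.59e-08). Hoxd3 measured 0.067 to 1.17 FPKM in proximal and at most 0.036 FPKM in distal libraries, with 149 counts against 2. That ratio is 85.0, with a 95% counting interval of 23.1 to 708.1 (adjusted p = 1.76e-06), an interval that covers counting error only. Without FIP1 knockout distal library 1 or 3 it was 149.3 (26.4 to 5937) or 151.7 (26.8 to 6032), each over 1 distal count. The Hoxd4 row had 89 counts in proximal and none in distal libraries. Its level in proximal colon was at least 33.8-fold higher, against a floor of 3 counts over the 9 distal libraries (edgeR adjusted p = 8.95e-06). The overlapping Hoxd4-long row had 7 counts in proximal and none in distal libraries, and reads of the 2 Hoxd4 models may be split between them. Hoxd1 had 8 counts, all of them proximal.

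HOXA genes from Hoxa2 to Hoxa13 were read in both segments, and the called ones were all higher in distal colon, by most in Hoxa5, Hoxa6, Hoxa9, Hoxa10 and Hoxa13. Hoxa13, a gene of the hindgut, genital tubercle and limb end, measured 35.0, 42.5 and 47.3 FPKM in distal and 0.401, 8.29 and 19.6 FPKM in proximal libraries. The segments did not overlap, and the log2 difference was -2.13 (SE 0.39, adjusted p = 0.000313). Hoxa10 measured 22.8, 26.4 and 36.5 against 0.230, 9.14 and 19.4 FPKM (log2 difference -1.69, SE 0.39, adjusted p = 0.00298), also without overlap. Hoxa9 measured 32.8, 39.9 and 53.5 against 0.604, 11.9 and 38.7 FPKM (log2 difference -1.38, SE 0.36, adjusted p = 0.00761), and here 1 proximal library reached the distal range. Hoxa5, needed for lung and gut maturation, measured 11.4, 15.3 and 25.5 in distal and 1.52, 4.24 and 8.04 FPKM in proximal libraries (log2 difference -1.66, SE 0.22, adjusted p = 8.77e-06). Hoxa6 measured 9.73, 13.9 and 18.6 against 0.962, 3.13 and 7.44 FPKM (log2 difference -1.80, SE 0.26, adjusted p = 3.05e-05). Neither Hoxa5 nor Hoxa6 overlapped between segments.

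The other HOXA genes moved less or not past the threshold. Hoxa7 fell by 0.76 on the log2 scale in proximal colon (SE 0.17, adjusted p = 0.00206), Hoxa2 by 0.75 (SE 0.21, adjusted p = 0.0144) and Hoxa3, a thymus and parathyroid gene, by 0.65 (SE 0.15, adjusted p = 0.00328). Their libraries overlapped between segments. Hoxa4 measured 0.427 to 1.84 FPKM in distal and 0.528 to 1.52 FPKM in proximal libraries (log2 difference -0.13, SE 0.24, adjusted p = 0.756). Hoxa11 was the posterior HOXA gene that did not follow Hoxa10 and Hoxa13, with 0.182, 0.464 and 1.13 FPKM in distal and 0, 0.662 and 2.10 FPKM in proximal libraries. Its log2 difference was 0.81 (SE 0.50, adjusted p = 0.291), past the threshold without a low-count filter (0.80, adjusted p = 0.0396). It shares 800 exonic bases with its antisense partner Hoxa11os, which was lower in proximal colon by 2.62 on the log2 scale (SE 0.38), with 41.4 to 167.0 CPM in distal and 0.644 to 24.3 CPM in proximal libraries.

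HOXC was nearly silent. Its 9 rows held 18 (Hoxc4), 13 (Hoxc5), 63 (Hoxc6), 13 (Hoxc8), 13 (Hoxc9), 3 (Hoxc10) and 2 (Hoxc13) counts over all 18 libraries. Hoxc11 and Hoxc12 had none, which at a floor of 3 counts was not distinguishable from a low level at this depth. Hoxc6 reached 0.852 FPKM in 1 distal and 0.738 FPKM in 1 proximal library, and no HOXC row passed the filter.

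Within each genotype Hoxb3 to Hoxb8 were called higher in proximal colon and Hoxb13 and Hoxd13 higher in distal colon, while HOXA calls numbered 7 of 10 in wild type, 3 in the FIP1 knockout and 1 in the FIP2 knockout (the plot of segment differences by genotype). These HOXA numbers depended on the fit, as given below. Wild type had 9 higher and 12 lower HOX rows in proximal colon, with 16.4% of all genes called (8.96% higher, 7.39% lower). The FIP1 knockout had 9 higher and 7 lower, with 6.6% of all genes called (2.94% higher, 3.65% lower). The FIP2 knockout had 10 higher and 5 lower, with 9.47% of all genes called (4.99% higher, 4.49% lower). Libraries did not overlap for 23 HOX rows in wild type (28.3% of all genes), 20 in the FIP1 knockout (23.3%) and 20 in the FIP2 knockout (26.6%). These numbers include the rows that passed the filter through 1 segment alone. Of the 16 that passed through both, 4 were higher and 8 lower in wild type. In the FIP1 knockout 4 were higher and 4 lower, and in the FIP2 knockout 5 and 2. Libraries did not overlap for 14, 11 and 12 of the 16 in the same order. In wild type Hoxb5 was 180-fold, Hoxb7 176-fold, Hoxb3 119-fold, Hoxb6 105-fold, Hoxb4 104-fold and Hoxb8 65.7-fold higher in proximal colon. In the FIP2 knockout the folds were 148.9 for Hoxb5, 143.7 for Hoxb7, 89.0 for Hoxb3, 295.0 for Hoxb6, 102.6 for Hoxb4 and 174.5 for Hoxb8. In the FIP1 knockout they were 25.1 for Hoxb5, 40.4 for Hoxb7, 19.6 for Hoxb3, 35.6 for Hoxb6, 29.4 for Hoxb4 and 30.4 for Hoxb8. Hoxb13 was higher in distal colon 62.6-fold in wild type, 91.5-fold in the FIP1 knockout and 45.4-fold in the FIP2 knockout. These Hoxb13 folds leaned on single proximal libraries: they were 135.9 without wild-type proximal library 2 and 41.2 without library 3, 247.4 without FIP1 knockout proximal library 3 and 119.4 without FIP2 knockout proximal library 2. Folds over few distal counts moved too. In wild type Hoxb4 was 265.4-fold without distal library 3 and Hoxb7 112.7-fold without distal library 1. With 1 to 3 distal counts remaining, wild-type Hoxb3 was 189.96-fold without distal library 1 (95% counting interval 52.3 to 1573) and Hoxb7 824.8-fold without distal library 3 (147.7 to 32612). In the FIP2 knockout, without distal library 1, Hoxb5 was 334.4-fold (114.1 to 1624) and Hoxb7 290.5-fold (99.1 to 1411). Hoxd13 was higher in distal colon at least 282-fold in wild type and at least 553-fold in the FIP2 knockout, where proximal libraries had no count, and 351-fold in the FIP1 knockout (221.4 without its distal library 3, and 782.4 without its proximal library 3, with a 95% counting interval of 140.2 to 30926).

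**Figure D3:**
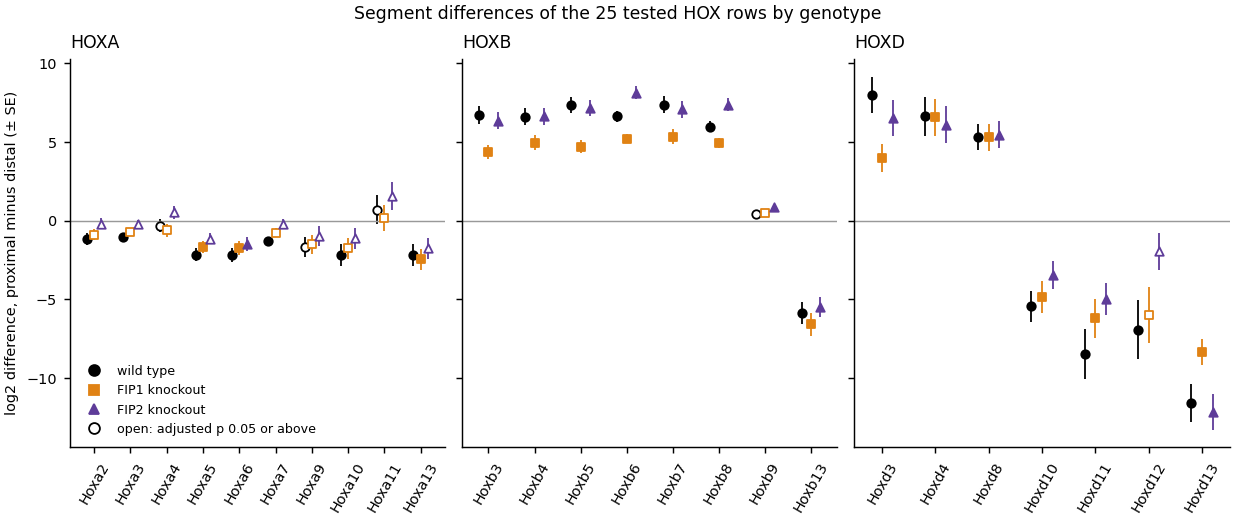
Log2 difference, proximal minus distal (± SE), of the 25 tested HOX rows in wild type, FIP1 knockout and FIP2 knockout (3 libraries per segment and genotype); open symbols did not pass an adjusted p under 0.05. Hoxb3 to Hoxb8 lie above 4 in all genotypes, Hoxb13 below -5, and HOXA points lie near or below 0 except Hoxa11 in all genotypes and Hoxa4 in the FIP2 knockout.

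The calls within a genotype were firm for HOXB and less so for HOXA. Leaving out each library in turn kept 16 of the 21 wild-type calls, 12 of 16 in the FIP1 knockout and 13 of 15 in the FIP2 knockout. These numbers include rows, Hoxb3 and Hoxb7 among them, that passed the low-count filter through 1 segment alone. Over all alternatives 16, 11 and 13 held, with Hoxd11 in the FIP1 knockout lost with limma on log2(FPKM + 1) (-0.88, adjusted p = 0.103). Wild-type Hoxa10 was also lost with DESeq2 (adjusted p = 0.0658), and Hoxa6 and Hoxa13 in the FIP1 knockout with the compared libraries alone (0.0778 and 0.0788). In wild type the calls of Hoxa2, Hoxa3, Hoxa10, Hoxa13 and Hoxd12 were lost when single libraries were left out. Hoxa13 (-2.18, SE 0.68, adjusted p = 0.0334) rose to an adjusted p of 0.121 without proximal library 1 and was also lost without proximal library 3 or any 1 of the 3 distal libraries. Hoxa10 (-2.19, SE 0.70, adjusted p = 0.0361) rose to 0.125 without proximal library 1 and was lost without proximal library 3 or any 1 distal library. Hoxa2 rose to 0.180 without distal library 3 and was lost without each other library but distal library 1, Hoxa3 to 0.0504 without distal library 3, and Hoxd12 to 0.0599 without distal library 1, 0.0543 without proximal library 1 and 0.0513 without proximal library 3. In the FIP1 knockout Hoxa13 rose to 0.152 without proximal library 1 and was lost without proximal library 2 or any 1 distal library. Hoxa6 was lost there without distal library 1 (0.139), proximal library 1 (0.117) or proximal library 2 (0.0860), Hoxa5 without distal library 1 (0.0566), and Hoxd3 without distal library 1 (0.0565), distal library 3 (0.0541) or proximal library 3 (0.0502). In the FIP2 knockout Hoxa6 reached 0.191 without proximal library 3 and was lost without proximal library 1, any 1 of its distal libraries or wild-type distal library 1. Hoxd10 was lost there without distal library 2 (0.0782), proximal library 1 (0.0579) or proximal library 2 (0.0765). Hoxb9 lay near the threshold, at 0.42 in wild type (adjusted p = 0.0555) and 0.48 in the FIP1 knockout (adjusted p = 0.0548), and omitting wild-type proximal library 2 made both calls (0.52, adjusted p = 0.0195, and 0.49, adjusted p = 0.0226). In the FIP1 knockout Hoxa9 (-2.88, adjusted p = 0.00621) and Hoxa10 (-3.30, adjusted p = 0.00602) became calls when its proximal library 3 was omitted, as did Hoxa2, Hoxa3 and Hoxa7. With the replicate number as a block, 2 further genes were called in the FIP2 knockout, Hoxa5 (-1.18, adjusted p = 0.0394, against 0.0641 without the block) and Hoxa13 (-1.81, adjusted p = 0.0426, against 0.111). With the compared libraries alone, Hoxa5 (adjusted p = 0.0204), Hoxa9 (0.0216), Hoxa10 (0.0306) and Hoxa13 (0.00112) became calls there, lower in proximal colon. Hoxa11 (0.0378) became one too, higher in proximal colon. Wild-type Hoxa9 did as well (0.00247), lower. Omitting FIP1 knockout proximal library 2 also called Hoxa5 (0.0207) and Hoxa13 (0.0267) in the FIP2 knockout and Hoxa9 in wild type (0.00195). Omitting its library 3 did the same (0.0246, 0.0214 and 0.0290).

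Proximal libraries differed widely among themselves in the posterior HOXA genes. Hoxa13 measured 4.54, 14.4 and 2.77 FPKM in wild-type proximal libraries 1 to 3, 3.46, 0.401 and 19.6 in the FIP1 knockout and 11.7, 17.9 and 8.29 in the FIP2 knockout. Hoxa10 measured 3.76, 10.7 and 2.31, then 4.31, 0.230 and 16.8, and then 10.5, 19.4 and 9.14 FPKM in the same order. Hoxa9 measured 9.996, 16.3 and 8.43, then 11.6, 0.604 and 38.7, and then 15.04, 24.5 and 11.9 FPKM. The 3 genes had the same order of libraries within every genotype. FIP1 knockout proximal library 2 had almost none of them and FIP1 knockout proximal library 3 was among the highest. Hoxb6, in contrast, measured 87.1, 39.6 and 109.6 FPKM in wild type, 80.5, 71.5 and 61.5 in the FIP1 knockout and 56.0, 53.9 and 61.2 in the FIP2 knockout.

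Relations over the 9 proximal libraries were computed on log2(CPM + 1). On that scale Hoxa13 went with Hoxa10 (Pearson r = 0.985, p = 4.41e-05; Spearman rho = 0.933, p = 0.00075) and Hoxa9 (r = 0.922, p = 4.96e-05; rho = 0.917, p = 0.00131), by exact permutation tests, two-sided. It went with Hoxb13 (r = 0.722, exact p = 0.0280; rho = 0.817, p = 0.0108) and against Hoxb6 (r = -0.763, exact p = 0.0159; rho = -0.867, p = 0.00451). For Hoxb9 the exact test gave r = -0.313 (p = 0.412) and rho = -0.233 (p = 0.552). These 5 relations were chosen after the values were seen, and an adjustment over the 5 does not cover that choice. The permutations also moved all 9 libraries freely across genotypes. Adjusted over the 5, the p-values of r by exact permutation were 0.000124 for Hoxa10 and for Hoxa9, 0.0350 for Hoxb13, 0.0265 for Hoxb6 and 0.412 for Hoxb9. Those of rho were 0.00328 for Hoxa10 and for Hoxa9, 0.0135 for Hoxb13, 0.00751 for Hoxb6 and 0.552 for Hoxb9. Without the 2 libraries farthest from the median of Hoxa13 on that scale (wild-type proximal library 3 and FIP1 knockout proximal library 2) r was 0.963, 0.849, 0.757, -0.915 and -0.413 for Hoxa10, Hoxa9, Hoxb13, Hoxb6 and Hoxb9. Within genotypes, with 3 libraries each, the order of Hoxb13 matched that of Hoxa13 in wild type and the FIP2 knockout but not in the FIP1 knockout. That of Hoxb6 was the reverse of Hoxa13 in wild type and the FIP2 knockout, and again not in the FIP1 knockout. The labels give no position within a segment, and where along the proximal colon each library was taken was not tested.

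**Figure D4:**
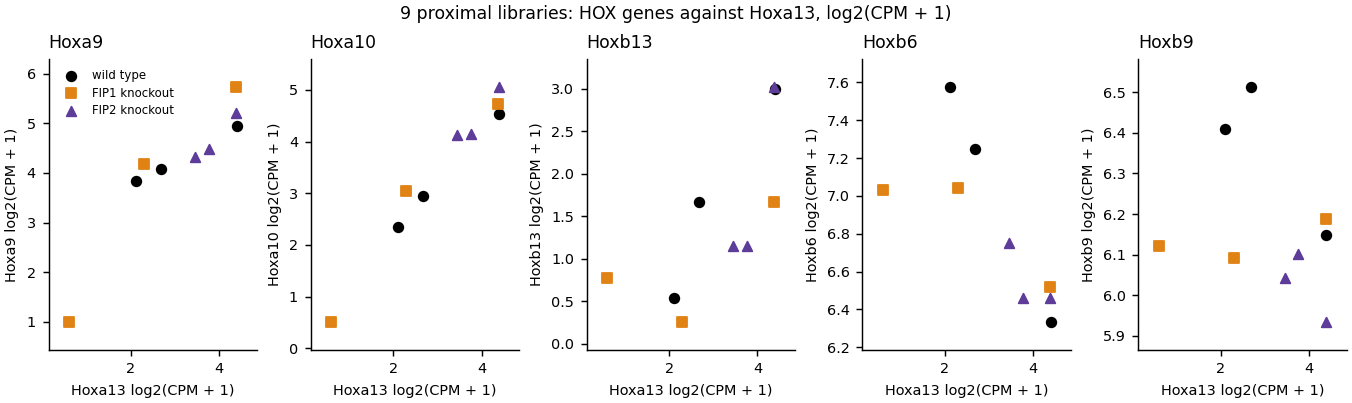
Level of Hoxa9, Hoxa10, Hoxb13, Hoxb6 and Hoxb9 against that of Hoxa13, both as log2(CPM + 1), in the 9 proximal libraries (1 point per library, genotypes as symbols). Hoxa9 and Hoxa10 climb with Hoxa13 (r = 0.922 and 0.985), with FIP1 knockout proximal library 2 lowest, and Hoxb6 runs the other way (r = -0.763).

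The knockouts were compared with wild type within each segment to ask whether loss of either adaptor altered HOX levels. In distal colon few HOX genes changed, most of them HOXB genes at low levels. The FIP1 knockout had 3 of 25 HOX rows higher (Hoxb3, Hoxb5 and Hoxb6) and none lower, with 16.3% of all genes called (8.84% higher, 7.47% lower). The FIP2 knockout had 4 lower (Hoxa2, Hoxb6, Hoxb8 and Hoxb9) and none higher, with 18.5% of all genes called (9.13% higher, 9.38% lower). Libraries did not overlap for 5 HOX rows in the FIP1 comparison (35.8% of all genes) and 9 in the FIP2 comparison (37.6%). The HOX counts were thus near or below these backgrounds, and both comparisons use the same 3 wild-type libraries.

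Hoxb5 measured 0.246, 0.288 and 0.267 CPM in the wild-type distal libraries and 1.53, 1.40 and 1.42 CPM in the FIP1 knockout. The groups were well apart, with a log2 difference of 2.41 (SE 0.60, adjusted p = 0.00938). Hoxb6 measured 1.35, 1.73 and 1.14 CPM in wild type and 3.98, 2.72 and 2.59 CPM in the FIP1 knockout (log2 difference 1.15, SE 0.35, adjusted p = 0.0312), again without overlap. Hoxb3 measured 0.184, 0 and 0.134 CPM against 0.872, 0.247 and 0.740 CPM (log2 difference 2.47, SE 0.71, adjusted p = 0.0219). These levels stayed far under the proximal ones. They rest on few reads: Hoxb5 had 4, 4 and 4 counts in wild type and 28, 17 and 23 in the FIP1 knockout. Hoxb3 had 3, 0 and 2 against 16, 3 and 12 counts. The Hoxb5 call held without each library, while that of Hoxb6 depended on wild-type distal libraries 1 and 3 (adjusted p = 0.0877 and 0.117 when omitted) and on FIP1 knockout distal library 1 (0.138). That of Hoxb3 depended on wild-type distal libraries 2 and 3 (adjusted p = 0.0829 and 0.0578 when omitted) and on FIP1 knockout distal libraries 1 and 3 (0.0879 and 0.0661). With limma on log2(FPKM + 1) the log2 differences of Hoxb3, Hoxb5 and Hoxb6 were 0.42, 0.59 and 0.72, with adjusted p-values of 0.362, 0.249 and 0.0760. Other cell markers moved with this contrast: 7 of 12 immune genes and 3 of 11 fibroblast genes were higher in the distal FIP1 knockout, and none of either list was called lower. The summed immune level was 120.2 to 195.2 CPM against 18.1 to 59.8 CPM in wild type, and the summed fibroblast level 45.4 to 155.3 CPM against 17.4 to 50.7 CPM, with no marker of either list at 0 in either group. Their part in the HOXB difference was not tested.

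In the distal FIP2 knockout Hoxb6 fell to 0.258, 0.180 and 0.564 CPM (log2 difference -2.09, SE 0.48, adjusted p = 0.00546), below all 3 wild-type libraries. With limma on log2(FPKM + 1) this call was lost (-0.60, adjusted p = 0.135). Hoxb9, which is high in distal colon, measured 54.5, 61.1 and 67.5 CPM in wild type and 32.4, 36.2 and 36.3 CPM in the FIP2 knockout. Its groups did not overlap, and the log2 difference of -0.80 (SE 0.15, adjusted p = 0.000874) held in all 28 alternatives. Hoxa2, an anterior gene of the hindbrain and branchial arches, measured 4.79, 7.35 and 11.02 CPM in wild type and 2.94, 2.38 and 3.33 CPM in the FIP2 knockout (log2 difference -1.42, SE 0.36, adjusted p = 0.0111). Hoxb8 measured 0.184, 0.793 and 0.467 against 0.155, 0.180 and 0.056 CPM (log2 difference -1.75, SE 0.57, adjusted p = 0.0400). The 2 groups were close for Hoxb8, with the lowest wild-type library next to the highest knockout one. Hoxb8 had only 3, 11 and 7 counts in wild type and 3, 4 and 1 in the FIP2 knockout. Hoxb6 had 22, 24 and 17 against 5, 4 and 10 counts. The call of Hoxa2 was lost when wild-type distal library 3 was omitted (-1.07, adjusted p = 0.0829) or FIP2 knockout distal library 2 (-1.30, 0.0519). That of Hoxb8 was lost on omitting wild-type distal library 2 (-1.21, adjusted p = 0.221) or 3 (0.0986), or any 1 FIP2 knockout distal library (0.0838, 0.0651 and 0.124). In this contrast 4 of 10 epithelial and 4 of 12 immune markers were higher, and 5 of 6 tested forebrain genes lower. The summed immune level was 56.6 to 68.2 CPM against 18.1 to 59.8 CPM in wild type, and the summed forebrain level 0.671 to 1.86 CPM against 8.86 to 8.96 CPM, with Ddn and Neurod6 at 0 in the FIP2 knockout. Their part in the HOX differences was not tested.

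**Figure D5:**
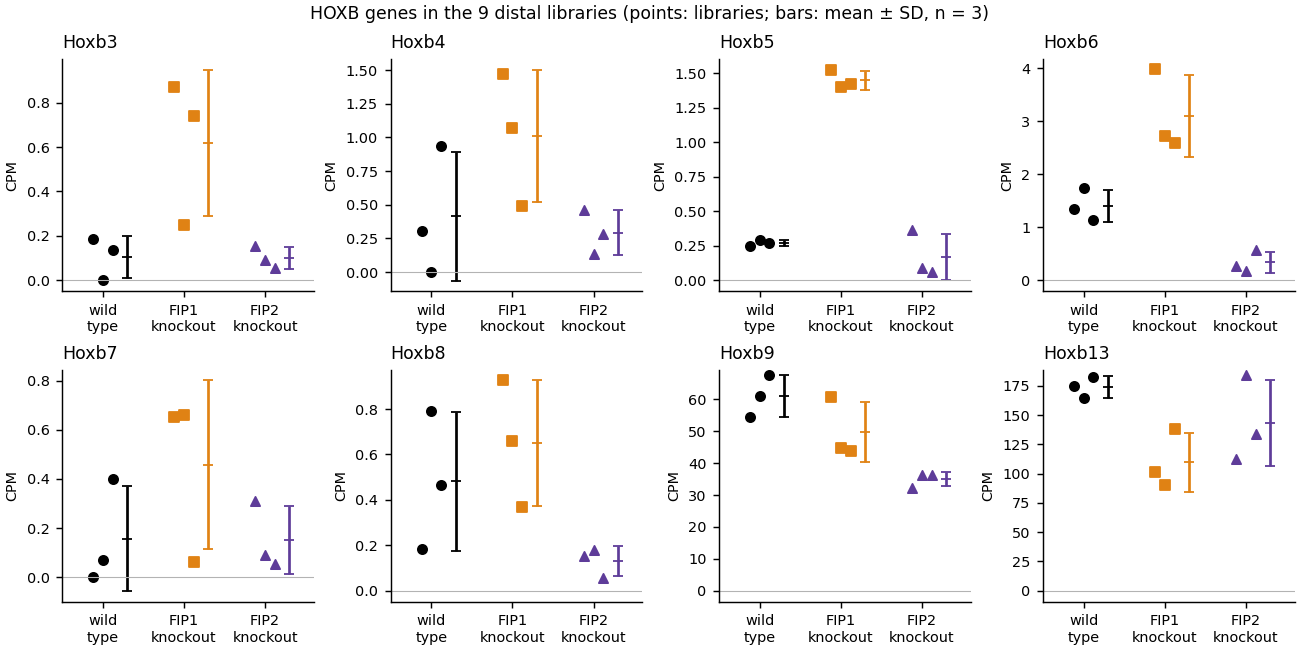
CPM of the 8 tested HOXB genes in the 9 distal libraries by genotype (points, libraries; bars, mean ± SD, n = 3 per group; separate linear axes). Hoxb5 and Hoxb6 lie higher in the 3 FIP1 knockout libraries than in the other 6, and Hoxb9 lies at 32.4 to 36.3 CPM in the FIP2 knockout against 54.5 to 67.5 CPM in wild type.

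In proximal colon edgeR called 0 of 25 HOX rows for either knockout, while 13.6% of all genes were called for the FIP1 knockout (6.7% higher, 6.89% lower) and 14.7% for the FIP2 knockout (7.6% higher, 7.07% lower). Libraries did not overlap for 2 and 3 HOX rows (26.6% and 29.3% of all genes). At an unadjusted p under 0.05 there were 2 rows (Hoxb8 and Hoxd3) and 4 rows (Hoxb5, Hoxb6, Hoxb9 and Hoxd3), and DESeq2 also called 0 for both, as did limma. With no low-count filter edgeR called Hoxb13 lower in the FIP1 knockout (-1.32, adjusted p = 4.75e-05). In the FIP2 knockout it then called Hoxa10 (1.06, adjusted p = 1.95e-05) and Hoxa13 (0.64, adjusted p = 0.0305) higher and Hoxb5 (-0.82, adjusted p = 0.00262) and Hoxb6 (-0.57, adjusted p = 0.0259) lower. On omission of wild-type proximal library 2 the FIP2 knockout had Hoxb5 (-1.19, adjusted p = 0.00229), Hoxb6 (-0.85, adjusted p = 0.00776) and Hoxb9 (-0.43, adjusted p = 0.0428) lower. Without FIP1 knockout proximal library 3, Hoxa13 was lower in the FIP1 knockout (-2.07, adjusted p = 0.0490). Cell markers moved too: 6 of 12 immune genes were higher in the FIP1 knockout and 9 of 12 in the FIP2 knockout. The summed immune level was 42.9 to 167.3 and 167.1 to 260.4 CPM against 25.1 to 55.8 CPM in wild type. Of 6 tested forebrain genes 6 and 5 were lower. None of either list was called the other way. Their part in the HOX levels was not tested.

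Whether a knockout acted differently in the 2 segments was tested as an interaction. edgeR called 0 of 25 HOX rows for FIP1 (0.644% of all genes called, 0.136% higher and 0.509% lower) and for FIP2 (0.328% called, 0.0735% higher and 0.254% lower), with 6 and 5 rows at an unadjusted p under 0.05. DESeq2 called 1 and 0 rows, and limma none. The FIP1 interaction of Hoxb5, a log2 value of -2.65 (SE 0.68, adjusted p = 0.0874), passed with DESeq2 (-2.68, adjusted p = 0.00732), with the replicate block (-2.64, adjusted p = 0.0148), on omission of wild-type proximal library 2 (-3.0, adjusted p = 0.00644) and with no low-count filter (-2.62, adjusted p = 2.91e-06). For Hoxb6 it was -1.42 (SE 0.43, adjusted p = 0.177), and -1.69 (adjusted p = 0.0329) when that library was omitted. With no low-count filter edgeR also called the FIP1 interaction for Hoxb3 (-2.34, adjusted p = 0.0284), Hoxb4 (-1.64, adjusted p = 0.0166) and Hoxb6 (-1.39, adjusted p = 0.0018). Whether the HOXB folds of the FIP1 knockout were smaller than those of wild type thus depended on the filter and the fit.

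Other transcripts within the clusters also differed between segments. Of 46 further rows lying between the outermost HOX genes 22 were tested, and 7 were higher and 8 lower in proximal colon in the averaged difference, in which 22.7% of all genes were called. Hoxb5os (6.95, SE 0.39) and Gm11536 (7.70, SE 0.51), antisense rows within the Hoxb3 to Hoxb8 block, were higher in proximal colon. The rows Gm27817 (-2.69, SE 0.37) and 9530018H14Rik (-2.10, SE 0.41), beside Hoxa11 and Hoxa13, were lower. The antisense row Hoxaas3 was lower by a small margin (-0.43, SE 0.15, adjusted p = 0.0468). Hoxb5os shares exonic bases with Hoxb5, and Hoxaas3 with Hoxa3 and Hoxa7. With the strand not given, reads of HOX genes may be counted in such rows. How many of the 22 rows passed the low-count filter through 1 segment alone was not counted. Of 23 tested protein-coding neighbours outside the clusters 1 was higher and 5 lower, a share near that background. Among them Evx2, the homeobox gene beside Hoxd13, had no count in any proximal library and 0.735 to 3.45 CPM in the distal ones, and Evx1, beside Hoxa13, was also lower in proximal colon (-1.39, SE 0.48, adjusted p = 0.0415). Ttll6, near Hoxb13, was lower too (-2.0, SE 0.13). Skap2 (-0.66, SE 0.12) and Lnpk (-0.42, SE 0.14, adjusted p = 0.0298) were lower, and Nfe2l2 was higher (0.78, SE 0.08).

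Among known partners and regulators of HOX genes, Cdx2, the caudal-type homeobox gene of intestinal identity, was higher in proximal colon, with 137.2 to 181.9 CPM against 42.8 to 93.9 CPM (log2 difference 1.33, SE 0.10), and the libraries did not overlap. Cdx1 measured 118.9 to 200.9 CPM in proximal and 142.5 to 199.1 CPM in distal libraries (log2 difference -0.12, SE 0.09, adjusted p = 0.377). The TALE gene Meis3 was higher in proximal colon (0.61, SE 0.14). Of 29 Polycomb genes 4 were higher and 4 lower, and of 14 trithorax genes 1 was lower, Kansl1, by 0.20 on the log2 scale. Of 11 tested retinoic acid genes 3 were higher (Aldh1a1, Rarg and Rxra) and 1 lower (Stra6). Aldh1a1, an enzyme that makes retinoic acid, measured 437.8 to 1116.9 CPM in proximal and 17.9 to 139.6 CPM in distal libraries (log2 difference 3.95, SE 0.25), and the receptor gene Rarg was higher by 0.92 (SE 0.11). All-gene calls in this contrast stood at 22.7%, so the shares of the Polycomb and trithorax lists were near or below it.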

How the data were processed

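The authors sequenced poly-A RNA as 150 nt reads. Per the submitters' processing notes, HTSeq 0.6.1, DESeq2, TopHat and STAR 2.5 were used, with builds mm10 and GRCm38. The authors deposited whole-number counts per gene and FPKM. For 18859 of 18859 genes checked, dividing counts by FPKM implied 1 length across libraries (tolerance 0.001). Counts were tested with edgeR 4.0.16 in R 4.3.3 (TMM, filterByExpr, 17692 genes, 1 quasi-likelihood fit over 18 libraries, 10 contrasts, square root of the common dispersion 0.234), with Benjamini-Hochberg adjustment over all genes and calls at adjusted p under 0.05. The test was checked on simulated counts. Levels between genes are compared as FPKM only. Ratios sum counts over a group, with a floor of 3 counts. The members, lists and figures were chosen with earlier results of these data known. Every HOX row is counted and, save 1 untested row that is not reported here, named or covered by its cluster's counts; of other lists up to 4 genes by adjusted p, of rows inside the clusters up to 6 by level, and neighbouring genes were named, with Gm11536, Gm27817, 9530018H14Rik, Hoxaas3 and the Mir10a row chosen after their values were seen.

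Alternatives were relative log expression, no filter, at least 1 CPM in 3 libraries, DESeq2 1.42.0, the compared libraries alone, a replicate block, limma 3.58.1 on log2(FPKM + 1) and log2(FPKM + 0.1) (mean FPKM of at least 0.5, and the latter unfiltered), omission of mitochondrially encoded genes, and omission of each library. Same-numbered distal and proximal libraries deviated together in the FIP2 knockout (correlations 0.422, 0.263 and 0.294) and the FIP1 knockout (0.215, 0.196 and 0.0940). Differently numbered ones correlated at most at 0.0508 and 0.00598 there. In wild type (-0.0941, 0.143 and 0.249) same-numbered libraries did not deviate together for every pair. Such correlations do not show that same-numbered samples came from the same animal. Promoter and microRNA sequences are from RefSeq (GRCm38.p6).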

Additional observations from a re-analysis of the deposited data

How the results depend on the processing

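Of 3511 recomputed HOX differences 3345 kept direction and call, 78 gained and 77 lost a call and 11 changed sign; of 279 recomputed HOX counts 15 and of 279 counts over all genes 34 moved by over 1.5 times, and the cause was not tested. Without a low-count filter HOX calls were 6 for FIP1 distal (3 in the fit as designed), 1 for FIP1 proximal and 4 for FIP2 proximal (0 each), and 4 and 3 for the FIP1 and FIP2 interactions (0 each), with 644 and 483 genes (114 and 58). DESeq2 gave 339 and 251 interaction genes and 1 HOX row for FIP1; the replicate block gave 262 and 202 genes and 1 HOX row for FIP1, and besides the FIP2 segment calls in the report it made Hoxa10 a call in the FIP1 knockout (-2.38, adjusted p = 0.0238) and Hoxb9 (0.49, adjusted p = 0.0481). limma on log2(FPKM + 0.1) gave 53 and 37 interaction genes, and unfiltered 2037 FIP2 distal genes (3274) and 2 HOX rows (4); on log2(FPKM + 1) it gave 0 FIP1 distal and 2 FIP2 distal HOX rows. The compared libraries alone gave 1810 wild-type segment genes (2893), 1287 FIP1 proximal (2404) and 1511 FIP2 proximal genes (2594). Leaving out 1 library gave, for all genes, 3580 to 4228 averaged segment calls, 2045 to 2986 in wild type, 682 to 1414 in the FIP1 and 1062 to 1942 in the FIP2 knockout, 1775 to 3566 and 1509 to 2503 for FIP1 distal and proximal, 1851 to 4089 and 1554 to 3608 for FIP2, and 40 to 154 and 34 to 77 for the interactions; for HOX rows 23 to 24, 17 to 23, 13 to 20, 13 to 17, 2 to 3, 0 to 1, 2 to 4, 0 to 3, 0 to 2 and 0 to 0 in the same order. Sign changes, none of a value called in the fit as designed, were Hoxa11 in wild type without proximal library 2 (-0.52, otherwise 0.70; up to 1.13 without proximal library 3); Hoxa11 in the FIP1 knockout (0.17) with the replicate block (-0.33), limma on log2(FPKM + 1) (-0.05) or log2(FPKM + 0.1) (-0.57, filtered or not), without distal library 3 (-0.28) or proximal library 3 (-1.30), and up to 0.72 without proximal library 2; Hoxa2 in the FIP2 knockout (-0.18) without proximal library 3 (0.05; down to -0.35 without proximal library 1); and Hoxa13, FIP1 proximal (-0.15), without wild-type proximal library 2 (0.96), FIP1 proximal library 1 (0.19) or 2 (0.39), against -2.07 (a call) without FIP1 proximal library 3. Depth limits HOXC, Hoxb1, Hoxd1 and Hoxd4-long.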
